A study of Homo sapiens with 6 samples.

Results

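The genes described here are 33 known hypoxia-induced genes that lie outside glycolysis, targets or reported targets of the hypoxia-inducible factors (HIF) in pH control, mitophagy, chromatin, matrix modification, angiogenesis and cell signalling. They were chosen by symbol, with earlier results of these data known. All 33 were found among the 28278 gene symbols of each count table. Messenger RNA was sequenced in 6 libraries of RKO, a human colon carcinoma line, 3 from cells labelled GSK3B knockout and 3 from cells with wild-type GSK3B. GSK3B encodes glycogen synthase kinase 3 beta, and the series was made to find how the transcriptome changes with its level. The labels name no treatment, oxygen level or time. The method of knockout, its being a clone or a pool, and the origin of the 3 libraries of a group, from separate cultures or not, are not stated. The p-values therefore measure the spread between these libraries, which may be technical.

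HIF is a dimer of an oxygen-sensitive alpha subunit, HIF1A or EPAS1, and the stable partner ARNT. With oxygen present, prolyl hydroxylases of the EGLN family mark the alpha subunit for the VHL ubiquitin ligase; with little oxygen the subunit escapes, enters the nucleus and binds short DNA motifs, the hypoxia response elements. Its targets help cells to live with little oxygen: they adjust acid balance, remove mitochondria, modify collagen, call in blood vessels and restrain growth, and in carcinoma cells some of them are also active in normal air.

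GSK3B itself had 46.0, 47.5 and 47.1 CPM (a gene's count relative to its library's total, scaled between libraries by the TMM method) in knockout replicates 1 to 3, against 99.0, 97.6 and 91.4 CPM in wild-type replicates 1 to 3. The groups did not overlap, and 48.8% of the transcript remained (95% interval 45.4 to 52.4). Gene-wise tests were fitted over all tested genes, and a gene is said to fall, rise or pass at an adjusted p under 0.05. For GSK3B, edgeR's quasi-likelihood test with Benjamini-Hochberg adjustment gave an adjusted p of 1.88e-12, and a permutation of its log2 CPM, exact and two-sided, reached p = 0.1, the floor for 3 against 3 libraries. Total counts ran from 32379369 to 33558362 per library. Of the markers of colon carcinoma lines, KRT8, KRT18, VIL1 and CDX2 were present at 17.1 CPM or more in both group means, EPCAM fell, at 1.07 CPM in knockout and 3.43 CPM in wild-type means, and CDH1 had 0 counts. KRT19 was near 0, at 0.102 CPM in knockout and 0.0809 CPM in wild-type means. Markers of other cell types summed to 1.24 to 1.65 CPM in knockout and 2.90 to 5.04 CPM in wild-type libraries, over 14 genes of which 5 had 0 counts throughout. Of the 3 tested markers of other cell types 2 fell, PDGFRB, at 0.711 CPM in knockout and 1.92 CPM in wild-type means, and COL1A1. COL1A1 had 7, 10 and 12 counts in knockout and 19, 13 and 61 counts in wild-type libraries. The part of the markers in the results was not tested. FBL, NDUFS1 and TJP1, which most dividing cells use, were listed at 0 in all 6 libraries, so a value at or near 0 is not read as absence of expression.

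HIF recognises a core of 5 bases that is spelled ACGTG or GCGTG. RefSeq promoters (GRCh38.p14, from 250 bases before to 50 bases after the annotated start) were at hand for 27 of the 33 genes. None was at hand for BNIP3L, VEGFA, ZNF395, NDRG1 and FUT11, which fell, nor for JMJD6, which did not pass. At least 1 core, on either strand and in any listed start, stood in 24 of these 27 (88.9%), beside 69.4% of the 10716 tested genes with a promoter and 52.4% of all 27305 genes in the table. ACGTG alone stood in 19 of 27 (70.4%), beside 32.1% of tested genes and 24.9% of all. A palindrome, in which ACGTG is read on both strands at overlapping positions, counts as 2 matches of 1 site. The stretches below show the cores in capitals, 5′ to 3′ on the gene's own strand, so that CACGT is ACGTG on the other strand; the first 6 belong to genes that fell and the last 3 to genes that did not pass the test, to show that the letters occur in both.
MIR210HG: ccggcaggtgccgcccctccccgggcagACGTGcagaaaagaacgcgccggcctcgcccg
CA9: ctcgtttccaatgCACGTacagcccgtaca
ANKRD37: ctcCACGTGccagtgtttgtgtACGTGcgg
DDIT4: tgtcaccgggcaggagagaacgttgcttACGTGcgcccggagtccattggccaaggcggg
KDM3A: tccgggaggctgtGCGTGtcttgtgagagc
P4HA1: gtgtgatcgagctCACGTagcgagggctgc
KDM4C: ggccccagcggtCACGTGacggcgcgcgcg
RIOK3: cccgacacaggcaACGTGaccccaagcgac
FAM162A: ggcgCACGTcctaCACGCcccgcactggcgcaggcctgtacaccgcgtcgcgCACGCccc

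These stretches lie at chr11:568596-568655 on the minus strand (MIR210HG), chr9:35673897-35673926 on the plus strand (CA9), chr4:185396676-185396705 on the plus strand (ANKRD37), chr10:72273771-72273830 on the plus strand (DDIT4), chr2:86441332-86441361 on the plus strand (KDM3A) and chr10:73096936-73096965 on the minus strand (P4HA1). Those of the 3 other genes lie on the plus strand, at chr9:6757930-6757959 (KDM4C), chr18:23453106-23453135 (RIOK3) and chr3:122384094-122384153 (FAM162A). All of them end before the RefSeq start; where GENCODE 29 places an exon in the stretch, as for CA9, 30 bases are shown. The core of CA9 begins 18 bases before it and that of KDM3A 26 bases before it. Among genes with a promoter, a core stood in 15 of 17 that fell and in 9 of 10 others. Those without a core were P4HA2 and RORA, which fell, and TMEM45A, which did not pass. The 10 others include PLOD2, STC2 and PPFIA4, which hold a core but had too few counts to be tested. Presence of a core did not separate the genes that fell from the others. A match is a description of the letters, not a bound site.

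**Figure D1:**
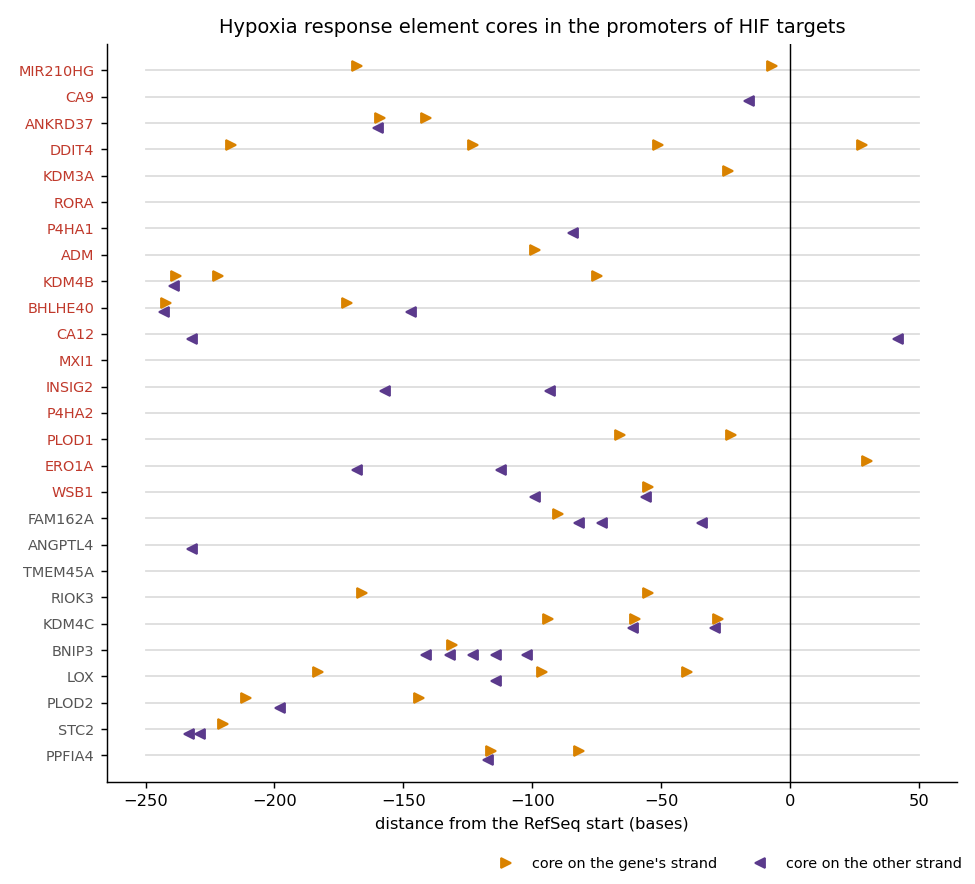
Position of hypoxia response element cores in the promoters of 27 HIF targets, in bases from the most upstream RefSeq start (x axis), one gene per row, ordered by log2 fold change with the largest fall at the top and genes too low to test at the bottom. Triangles mark cores on the gene's strand or the other strand, red names are genes that fell, and cores occur among red and grey names alike.

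Of the 33 genes, 30 had enough counts to be tested, and 22 of them were lower in knockout than in wild-type cells, with 0 higher and 8 that did not pass. The 3 others, PLOD2, STC2 and PPFIA4, had at most 4 counts in any library. Of all 14409 tested genes 7.18% were called lower and 6.36% higher. As the list was chosen with earlier results known, this contrast describes it and does not test it. The members' median log2 fold change (knockout over wild type) was -0.36, where that of all tested genes was 0.00, and 27 of 30 members had a negative value. In 24 members every knockout library lay below every wild-type library, which held for 15.9% of all tested genes, and in 0 members did every knockout library lie above, which held for 15.4%. In bulk RNA, fewer cells that express a gene and less of its RNA per cell cannot be told apart.

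Leaving out wild-type replicate 2 or else knockout replicate 1, 2 or 3 lowered the share of all genes called lower to 4.22%, 4.36%, 4.03% and 4.51%, and the members' count to 19, 19, 20 and 19. With a correction for GC content 23 members were called lower, beside 9.42% of all tested genes. The 22 falls were mostly moderate. They ran from 10.5% for WSB1 to 60.6% for MIR210HG, and 5 of them were 1.5-fold or more. The CPM of all 33 genes summed to 1771, 1763 and 1775 in knockout replicates 1 to 3, against 2268, 2290 and 2254 in wild-type replicates 1 to 3. Without NDRG1, the member with the most counts, these sums were 1477 to 1489 CPM in knockout and 1813 to 1865 CPM in wild-type libraries. The shift was alike in each knockout library. Relative to the wild-type means, the median member stood at -0.38, -0.35 and -0.33 on the log2 scale in knockout replicates 1 to 3. The wild-type replicates, which make up those means and so lie near 0 by construction, stood between -0.02 and 0.00.

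**Figure D2:**
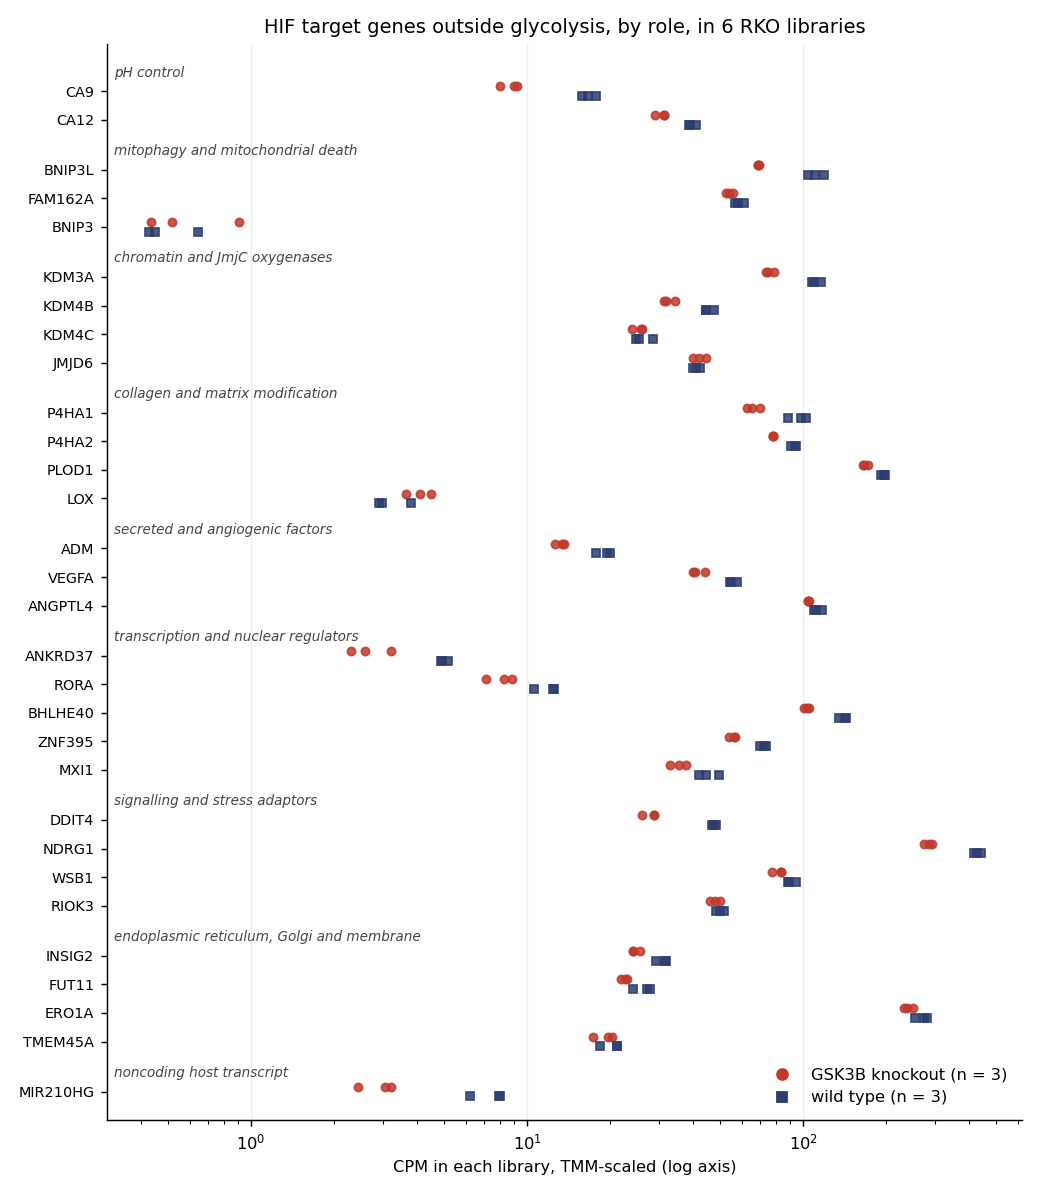
CPM of the 30 tested HIF targets in each library (log x axis), grouped by role; circles are the 3 knockout libraries and squares the 3 wild-type libraries. In 24 genes all circles lie left of all squares, MIR210HG at 2.44 to 3.22 against 6.20 to 7.96 CPM among them, and BNIP3 and LOX are the low genes whose symbols overlap.

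Members were not confined to one level of expression. In the range from 20 to 50 CPM 7 of 10 members fell, beside 8.42% of all genes in that range, from 50 to 100 CPM 6 of 7, beside 6.49%, and above 100 CPM 4 of 5, beside 5.80%. From 5 to 20 CPM 4 of 5 members fell, beside 9.62%, and below 5 CPM 1 of 3, beside 5.19%.

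**Figure D3:**
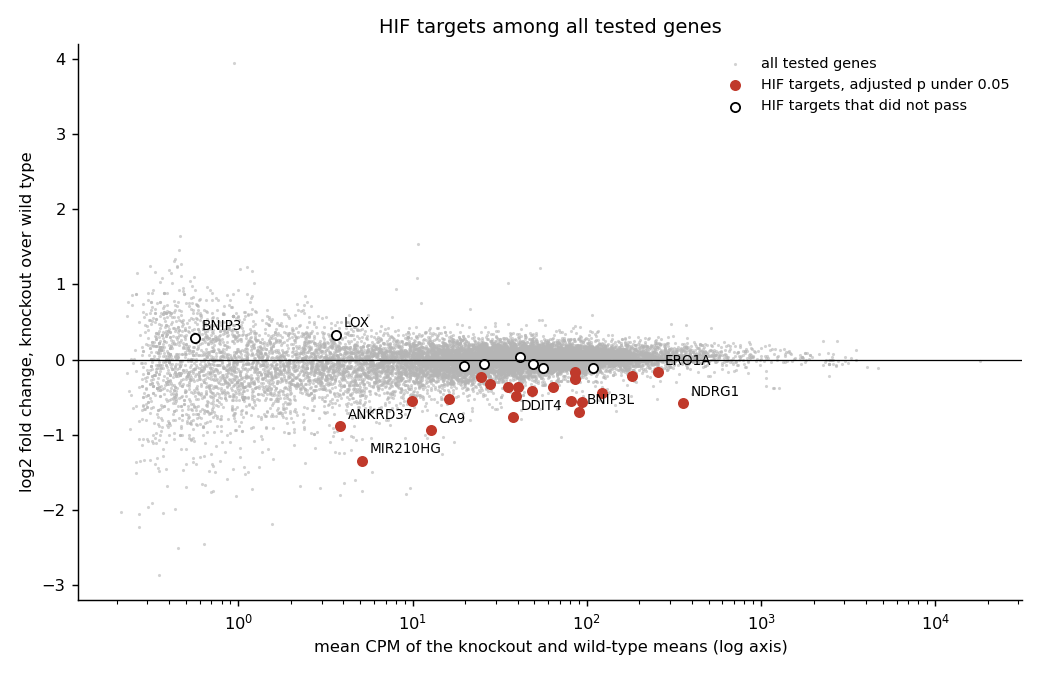
Log2 fold change (knockout over wild type, y axis) against mean CPM (log x axis) for all 14409 tested genes in grey, with the 22 HIF targets that fell as filled points and the 8 that did not pass as open points. The filled points, which lie below 0 by definition, run from ANKRD37 at a few CPM to NDRG1 at 285 CPM in knockout and 427 CPM in wild-type means.

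Both genes of pH control fell. CA9 and CA12 encode membrane-bound carbonic anhydrases whose catalytic domains face outward and turn CO2 into bicarbonate and protons. CA9 (chr9:35673856-35681159, plus strand, GENCODE 29 on hg38) had 9.23, 8.98 and 7.96 CPM in knockout replicates 1 to 3, against 15.9, 16.6 and 17.7 CPM in wild-type replicates 1 to 3. The lowest wild-type library stood well above the highest knockout library, and the log2 fold change was -0.94 ± 0.09 (SE, n = 3 per group; edgeR's quasi-likelihood test, adjusted p = 1.64e-07). CA12 had 29.1, 31.3 and 31.4 CPM in knockout libraries and 38.5, 38.9 and 41.1 CPM in wild-type libraries, again without overlap, a log2 fold change of -0.37 ± 0.06 (edgeR, adjusted p = 2.56e-04). CA9 shares 643 of its 1670 exon bases with ARHGEF39 on the opposite strand. ARHGEF39 averaged 26.4 ± 0.15 CPM in knockout and 29.6 ± 0.48 CPM in wild-type libraries (SD, n = 3) and did not pass (log2 fold change -0.16; edgeR, adjusted p = 0.0937). Since no strand setting is given in the sources used here, reads from the shared bases cannot be told apart.

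Of the 3 mitochondrial genes, BNIP3L alone fell. It encodes NIX, a receptor in the outer mitochondrial membrane that draws mitochondria into autophagosomes. It had 68.9, 69.3 and 68.6 CPM in knockout libraries, nearly identical values, against 119, 110.4 and 104.5 CPM in wild-type libraries. The knockout kept 62.0% of the transcript (95% interval 57.7 to 66.5; edgeR, adjusted p = 1.14e-09), the 9th smallest p among all tested genes. BNIP3L shares 330 of its 4307 exon bases with PNMA2 on the opposite strand, which also fell (log2 fold change -0.31, edgeR, adjusted p = 6.18e-04). BNIP3, the paralog of BNIP3L, is a receptor of the same kind and among the best known HIF targets. BNIP3 was barely present, with 17, 14 and 30 counts in knockout and 14, 21 and 15 counts in wild-type libraries. That depth gave a 95% interval of 70.2% to 213% of the wild-type level, which excludes neither a fall like that of CA12 nor a doubling. FAM162A, a mitochondrial protein linked to death of hypoxic cells, had 52.6, 53.8 and 55.9 CPM in knockout and 61.2, 58.0 and 56.5 CPM in wild-type libraries. The groups did not overlap, but by little, and it did not pass (log2 fold change -0.11 ± 0.05; edgeR, adjusted p = 0.160). With fold changes corrected for GC content it passed, at -0.19 (edgeR, adjusted p = 0.00301).

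Among genes that act on chromatin or carry a JmjC oxygenase fold, 2 of 4 fell. These enzymes use molecular oxygen, as the HIF hydroxylases do. KDM3A, a histone lysine demethylase, had 73.1, 78.5 and 74.8 CPM in knockout and 116, 109.7 and 107 CPM in wild-type libraries (log2 fold change -0.56 ± 0.05; edgeR, adjusted p = 1.62e-08). KDM4B, another histone lysine demethylase, had 34.3, 31.4 and 31.97 CPM in knockout and 44.5, 44.7 and 47.8 CPM in wild-type libraries (-0.49 ± 0.06; edgeR, adjusted p = 5.34e-06). For both the groups were far apart. KDM4C, of the same subfamily as KDM4B, had 26.1, 23.9 and 25.9 CPM in knockout and 24.9, 28.6 and 25.4 CPM in wild-type libraries, with overlapping groups, and its 95% interval ran from 86.8% to 107% of the wild-type level. JMJD6, a JmjC protein with lysyl hydroxylase activity, averaged 42.1 ± 2.30 CPM in knockout and 41.0 ± 1.15 CPM in wild-type libraries (SD, n = 3), with a 95% interval from 94.3% to 112%. Neither KDM4C nor JMJD6 passed (edgeR, adjusted p = 0.671 and 0.728).

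The collagen-modifying enzymes P4HA1, P4HA2 and PLOD1 fell. P4HA1 and P4HA2 are alternative catalytic subunits of collagen prolyl hydroxylase, which stabilises the triple helix. P4HA1 had 65.1, 62.6 and 69.9 CPM in knockout and 102, 98.1 and 88.2 CPM in wild-type libraries, a log2 fold change of -0.55 ± 0.06 (edgeR, adjusted p = 2.76e-07). P4HA2 had 77.8, 78.0 and 77.8 CPM in knockout and 93.8, 90.6 and 94.0 CPM in wild-type libraries, -0.25 ± 0.05 (edgeR, adjusted p = 4.84e-04). Both fell without overlap. Per kilobase of exon, as RPKM, P4HA1 was the higher of the pair in both groups, at 21.3 in knockout and 31.1 in wild-type means, where P4HA2 had 9.15 in knockout and 10.9 in wild-type means. P4HA2 shares 548 of its 8502 exon bases with P4HA2-AS1 on the opposite strand, which did not pass (log2 fold change -0.30, edgeR, adjusted p = 0.0876). PLOD1, a collagen lysyl hydroxylase, had 166, 165 and 172 CPM in knockout and 192, 198 and 196 CPM in wild-type libraries, 85.8% of the wild-type level (95% interval 81.2 to 90.7; edgeR, adjusted p = 4.10e-04). PLOD2, the lysyl hydroxylase most often linked to hypoxia, had 1, 0 and 1 counts in knockout and 2, 0 and 4 counts in wild-type libraries, too few to compare. LOX, which cross-links collagen and elastin, had 3.65, 4.48 and 4.09 CPM in knockout and 3.80, 2.99 and 2.91 CPM in wild-type libraries. The groups overlapped and it did not pass (log2 fold change 0.33 ± 0.16; edgeR, adjusted p = 0.178), the highest value among the members.

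Of 3 tested secreted factors VEGFA and ADM fell. VEGFA, the main growth factor of blood vessels, had 40.5, 40.0 and 44.1 CPM in knockout and 54.2, 55.0 and 57.8 CPM in wild-type libraries (log2 fold change -0.42 ± 0.06; edgeR, adjusted p = 1.66e-05). ADM encodes adrenomedullin, a vasodilating peptide, and had 13.7, 12.7 and 13.3 CPM in knockout and 19.6, 17.7 and 19.97 CPM in wild-type libraries (-0.53 ± 0.08; edgeR, adjusted p = 1.04e-04). In both, every knockout library lay below every wild-type library. ANGPTL4, an inhibitor of lipoprotein lipase, had 103.8, 104.0 and 105.0 CPM in knockout and 109.8, 111 and 117 CPM in wild-type libraries. Its groups did not overlap, yet it did not pass, at 92.4% of the wild-type level (95% interval 86.7 to 98.4; edgeR, adjusted p = 0.0861). It passed with scaling by library size alone and without wild-type replicate 1 (edgeR, adjusted p = 0.0471 and 0.0373). STC2, a secreted stanniocalcin, had 1, 2 and 0 counts in knockout and 0 counts in all wild-type libraries, and no fold is given.

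All 5 transcription and nuclear regulators fell. BHLHE40, a transcriptional repressor also known from the circadian clock, had 105.0, 103.5 and 100.9 CPM in knockout and 135, 144 and 142 CPM in wild-type libraries (log2 fold change -0.44 ± 0.04; edgeR, adjusted p = 1.62e-07). MXI1, a MAX partner that opposes MYC, had 37.6, 35.6 and 32.99 CPM in knockout and 44.7, 49.6 and 42.2 CPM in wild-type libraries (-0.36 ± 0.07; edgeR, adjusted p = 7.08e-04). In both the highest knockout library was below the lowest wild-type library. RORA, an orphan nuclear receptor, had 8.25, 8.86 and 7.12 CPM in knockout and 12.5, 12.6 and 10.6 CPM in wild-type libraries (-0.55 ± 0.11; edgeR, adjusted p = 0.00111). ZNF395, a zinc finger transcription factor, averaged 55.5 ± 1.46 CPM in knockout and 71.8 ± 1.78 CPM in wild-type libraries (SD, n = 3; -0.37 ± 0.05; edgeR, adjusted p = 1.71e-05). ANKRD37, a small ankyrin-repeat protein, had 3.23, 2.30 and 2.58 CPM in knockout and 4.92, 4.89 and 5.16 CPM in wild-type libraries, 54.2% of the wild-type level (95% interval 43.3 to 67.9; edgeR, adjusted p = 4.80e-04). ANKRD37 shares 909 of its 2580 exon bases with UFSP2 on the opposite strand, which also fell, by 0.27 on the log2 scale (edgeR, adjusted p = 0.0372). RORA shares 564 of its 17040 exon bases with RORA-AS1 on the opposite strand, whose values are not given here. ZNF395 shares 2032 of its 5819 exon bases with FBXO16 on the same strand, which was low, at 1.41 ± 0.16 CPM in knockout and 1.596 ± 0.32 CPM in wild-type libraries (SD, n = 3).

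Of the signalling and stress genes DDIT4, NDRG1 and WSB1 fell. DDIT4 encodes REDD1, an inhibitor of the growth kinase mTOR, and had 28.8, 28.8 and 26.2 CPM in knockout and 48.3, 47.5 and 47.0 CPM in wild-type libraries (log2 fold change -0.77 ± 0.06; edgeR, adjusted p = 4.88e-09). It is also induced by other stresses. DDIT4 shares 847 of its 2058 exon bases with DDIT4-AS1 on the opposite strand, whose reads were not analysed here and cannot be told apart from its own without a strand setting. NDRG1, a stress-response protein described as a suppressor of metastasis, had the most counts of all members, with 294, 275 and 287 CPM in knockout and 416, 425 and 441 CPM in wild-type libraries. At 66.8% of the wild-type level (95% interval 63.4 to 70.3; edgeR, adjusted p = 2.09e-10) it had the 2nd smallest p of all tested genes, after GSK3B. WSB1, the substrate receptor of a ubiquitin ligase, had 77.0, 83.2 and 83.1 CPM in knockout and 88.2, 94.2 and 89.3 CPM in wild-type libraries (-0.16 ± 0.05; edgeR, adjusted p = 0.0307). Its groups were close, and without wild-type replicate 2 or any 1 knockout library it did not pass (edgeR, adjusted p from 0.0615 to 0.203). RIOK3, an atypical protein kinase, averaged 48.0 ± 2.08 CPM in knockout and 50.2 ± 1.67 CPM in wild-type libraries (SD, n = 3) and did not pass (edgeR, adjusted p = 0.491). PPFIA4, a liprin scaffold gene, had 2, 1 and 1 counts in knockout and 0, 0 and 3 counts in wild-type libraries.

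Of 4 genes of the endoplasmic reticulum, Golgi and membrane 3 fell, by modest amounts. INSIG2, which holds the sterol-sensing SREBP complex in the endoplasmic reticulum, had 24.2, 24.2 and 25.7 CPM in knockout and 31.96, 31.7 and 29.4 CPM in wild-type libraries (log2 fold change -0.33 ± 0.07; edgeR, adjusted p = 0.00166). ERO1A, the oxidase that drives disulfide formation in secreted proteins, had 237, 251 and 232 CPM in knockout and 274, 280.4 and 254 CPM in wild-type libraries (-0.16 ± 0.04; edgeR, adjusted p = 0.00974). The highest knockout and lowest wild-type libraries of ERO1A nearly met, and the call was lost when wild-type replicate 2, knockout replicate 1 or knockout replicate 3 was left out (edgeR, adjusted p = 0.0969, 0.0632 and 0.0829). FUT11, a fucosyltransferase, averaged 22.5 ± 0.59 CPM in knockout and 26.5 ± 1.94 CPM in wild-type libraries (SD, n = 3; -0.23 ± 0.07; edgeR, adjusted p = 0.0318), and its call was lost when any library but wild-type replicate 1 was left out (edgeR, adjusted p from 0.0742 to 0.127). TMEM45A, a transmembrane protein, averaged 19.1 ± 1.58 CPM in knockout and 20.2 ± 1.56 CPM in wild-type libraries and did not pass (edgeR, adjusted p = 0.548). On the opposite strand FUT11 shares 572 of its 4910 exon bases with AC022400.8, and ERO1A 581 of its 7548 with AL133453.1. Neither of these overlapping genes was counted, and reads from the shared bases cannot be told apart.

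The noncoding transcript MIR210HG had the largest change among the 30 tested members. It is the host of the microRNA miR-210, a widely used marker of hypoxia, and lies at chr11:565660-568457 on the minus strand. It had 2.44, 3.05 and 3.22 CPM in knockout replicates 1 to 3, against 6.20, 7.95 and 7.96 CPM in wild-type replicates 1 to 3. The log2 fold change was -1.34 ± 0.15 (edgeR, adjusted p = 8.78e-07), which is 39.4% of the wild-type level (95% interval 31.9 to 48.7). The 2 mature arms of the hairpin inside it, from RefSeq (GRCh38.p14), are shown because the hairpin is what this transcript is known for, with the seed, bases 2 to 8, in capitals.
hsa-miR-210-3p: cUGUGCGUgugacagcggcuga
hsa-miR-210-5p: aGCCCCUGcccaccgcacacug

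They lie at chr11:568112-568133 and chr11:568150-568171 on the minus strand. These libraries of polyadenylated RNA do not measure the mature arms: the entry for the hairpin gene MIR210 had 1, 0 and 0 counts in knockout and 4, 0 and 0 counts in wild-type libraries.

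**Figure D4:**
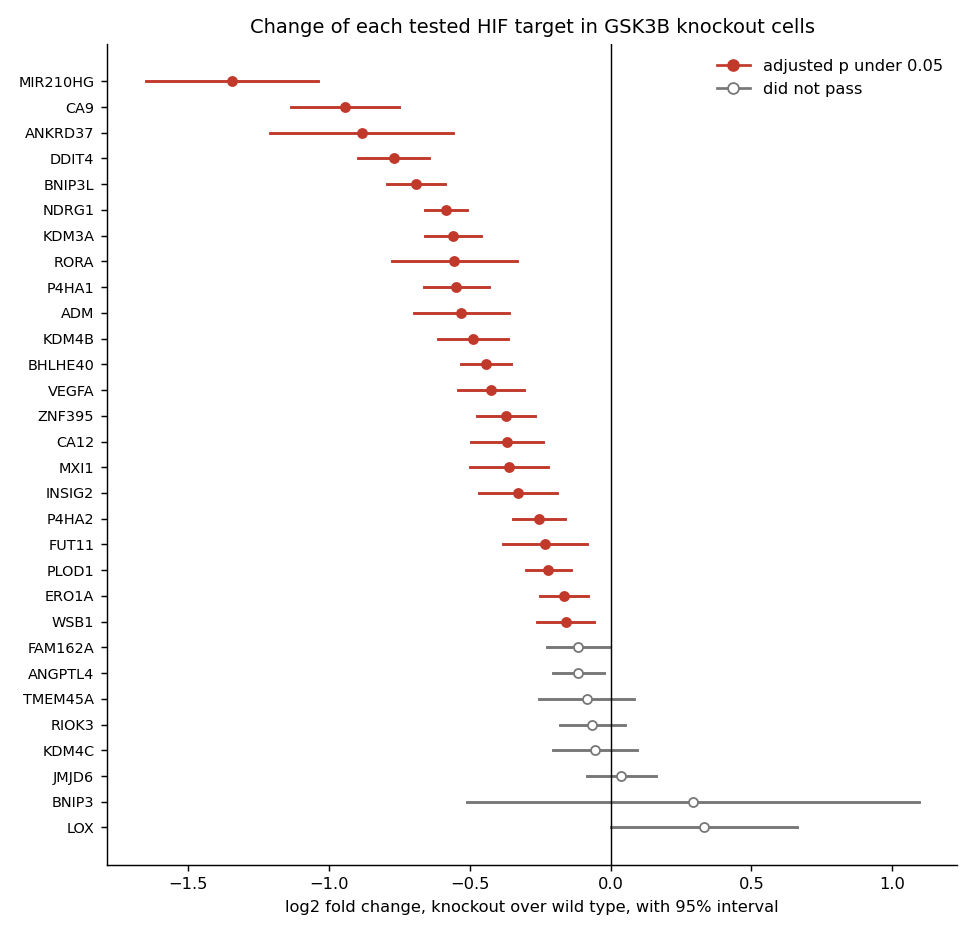
Log2 fold change of each tested HIF target (knockout over wild type, x axis) with its 95% interval, with the lowest value at the top and the highest at the bottom; filled red points passed at an adjusted p under 0.05. The values run from -1.34 for MIR210HG to 0.33 for LOX, and the widest interval is that of BNIP3, which had 14 to 30 counts a library.

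Levels can be set side by side between genes per exon length. By RPKM, ANGPTL4, at 42.0 in knockout and 45.5 in wild-type means, and NDRG1, at 29.04 in knockout and 43.5 in wild-type means, were the highest members in wild-type cells. PLOD1 had 31.6 in knockout and 36.8 in wild-type means, BHLHE40 26.9 in knockout and 36.5 in wild-type means, and ERO1A 31.8 in knockout and 35.7 in wild-type means. Exon lengths are those of all annotated exons of a gene together, so genes with long alternative exons read low on this scale.

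Most genes of the glycolytic arm of the HIF response fell as well. Of 22 genes of glycolysis, glucose and lactate transport and pyruvate entry 17 were lower in the knockout (77.3%), 0 higher and 5 did not pass. Of all tested genes 7.18% were lower and 6.36% higher. The median log2 fold change of the 22 genes was -0.24, against the -0.36 of the 30 tested targets outside glycolysis. The members' own extremes reached further, and the difference between the lists was not tested. The largest falls were those of PFKFB4, a regulator of glycolytic flux, at -0.65, and the glucose transporter gene SLC2A1 at -0.61. Next came the aldolase gene ALDOC at -0.56 and the pyruvate dehydrogenase kinase gene PDK1 at -0.53.

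Of 16 tested genes that make, sense or degrade HIF, EGLN1 fell, HIF1A rose and 14 did not pass, a share called close to the 13.5% of all tested genes, with a median log2 fold change of 0.01. HIF1A had 80.0, 80.9 and 79.4 CPM in knockout and 73.7, 72.2 and 68.8 CPM in wild-type libraries, so its transcript was higher where the targets were lower (log2 fold change 0.16 ± 0.05; edgeR, adjusted p = 0.0255). Corrected for GC content the rise was 0.06 and did not pass (edgeR, adjusted p = 0.3197), and it was also lost when wild-type replicate 2 or any 1 knockout library was left out (edgeR, adjusted p from 0.0712 to 0.125). EPAS1, the other alpha subunit, averaged 15.2 ± 1.504 CPM in knockout and 15.9 ± 0.93 CPM in wild-type libraries, and ARNT 43.3 ± 1.56 CPM in knockout and 43.3 ± 2.99 CPM in wild-type libraries (SD, n = 3); neither passed (edgeR, adjusted p = 0.702 and 0.993). EGLN1, the main oxygen sensor and itself a known HIF target, had 107, 107.9 and 104.0 CPM in knockout and 143, 137 and 132 CPM in wild-type libraries (-0.37 ± 0.04; edgeR, adjusted p = 3.50e-06). The hydroxylase gene EGLN3, also hypoxia-induced in many cells, had 2, 0 and 0 counts in knockout and 4, 10 and 3 counts in wild-type libraries and was not tested. Protein levels and hydroxylation of HIF were not measured here.

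Genes that share a family or a function with the targets, but are not among the 33, were compared next. Being outside the 33 does not mean that a gene is no HIF target, so these lists are not a set of non-targets. Of 73 tested relatives 10 were lower (13.7%, beside 7.18% of all tested genes), 7 higher (beside 6.36%) and 56 did not pass. Their median was -0.03. With wild-type replicate 2 left out 7 relatives were called in place of 17, 4 lower and 3 higher. With knockout replicate 1, 2 or 3 left out 6, 7 and 7 were called, 4 lower each time and 2, 3 and 3 higher. Some of the calls named below were therefore lost in these fits. In pH control, where CA9 and CA12 fell, 4 of 8 relatives rose and 0 fell, beside 6.36% of all tested genes higher and 7.18% lower. Those that rose were the intracellular carbonic anhydrase CA13 (log2 fold change 0.28) and the anion exchanger SLC4A2 (0.17). The bicarbonate cotransporter SLC4A7 (0.16) and the lactate transporter SLC16A1 (0.14) rose too. Of 18 JmjC relatives 4 fell (22.2%, beside 7.18% of all tested genes) and 0 rose. These were KDM7A at -0.32, HSPBAP1 at -0.30, KDM6B at -0.25 and KDM5C at -0.22, whereas KDM3B, the paralog of KDM3A, stood at -0.03. Of 13 relatives in collagen modification CRTAP fell, at -0.13 (7.69% of the list, near the 7.18% of all tested genes). Of 9 mitophagy genes OPTN and FKBP8 fell, at -0.18 and -0.15 (22.2%), and of 9 secreted factors VEGFB fell, at -0.19 (11.1%). STC1, a secreted stanniocalcin that is abundant where STC2 was near 0, averaged 1229 ± 6.33 CPM in knockout and 1238 ± 49.8 CPM in wild-type libraries (SD, n = 3) and did not pass. Of 16 relatives of the remaining members the MAX partners MXD4 and MNT fell, at -0.41 and -0.27 (12.5%, beside 7.18%). ANKRD10 and RIOK2 rose, at 0.27 and 0.23, with WSB2 at 0.15, where 6.36% of all tested genes were higher.

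**Figure D5:**
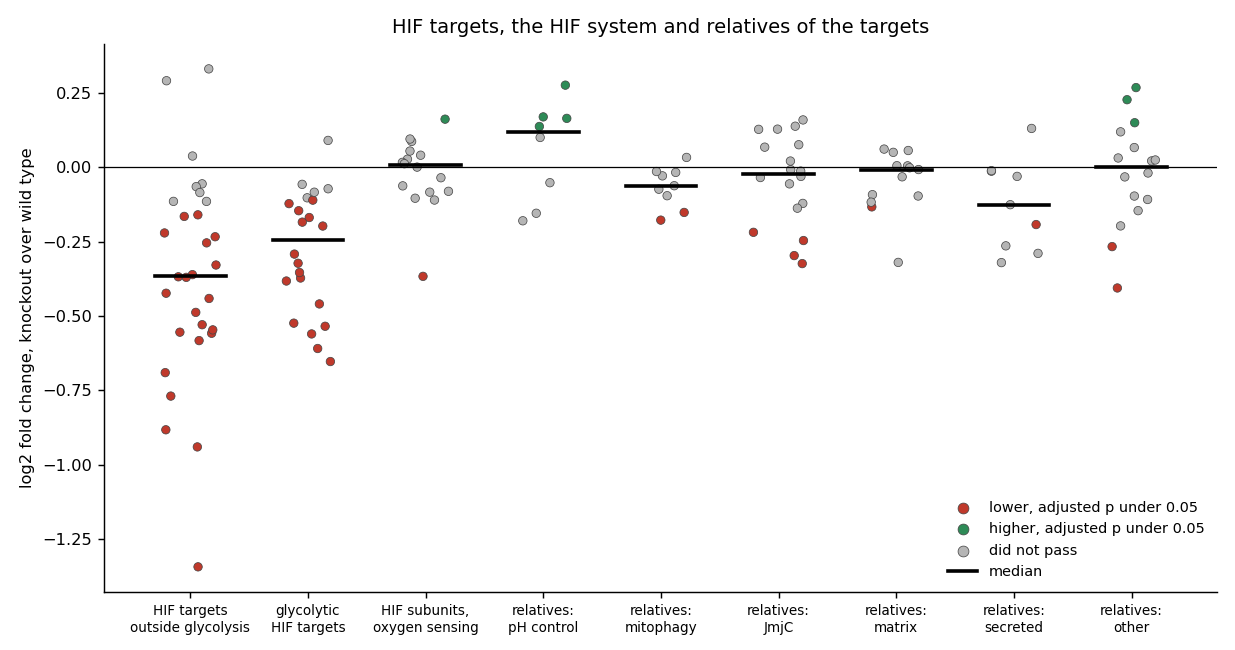
Log2 fold change (knockout over wild type, y axis) of every tested gene in the HIF targets, the glycolytic HIF targets, the HIF system and 6 lists of relatives (x axis); colours give the call at an adjusted p under 0.05 and bars the median. The medians are -0.36 and -0.24 for the first 2 lists, 0.01 for the HIF system and between -0.13 and 0.12 for the relatives.

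A ratio of 2 genes in the same library does not depend on how libraries are scaled. The pairs of a member and a relative given here were chosen after the values were seen, and most of their members had been called lower already, so the ratios describe those calls on another scale and are not further support. KDM3A stood to KDM3B, per exon length, as 0.287, 0.319 and 0.298 in knockout libraries and as 0.459, 0.425 and 0.419 in wild-type libraries. NDRG1 to NDRG3 was 1.75, 1.72 and 1.77 in knockout and 2.44, 2.49 and 2.42 in wild-type libraries, and INSIG2 to INSIG1 was 0.377, 0.355 and 0.393 in knockout and 0.457, 0.481 and 0.443 in wild-type libraries. In these 3 pairs the member was lower and the relative did not pass. The ratio of RIOK3 to RIOK2 was also lower in the knockout, at 1.01 to 1.03 against 1.17 to 1.38 in wild type, but there the relative had risen, as it had for CA12 with CA13 and for WSB1 with WSB2. The ratios of KDM4C to KDM4A and of BHLHE40 to BHLHE41 overlapped between the groups.

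Base composition moved with the fold changes across the whole table: for the 95.9% of tested genes whose transcript GC content was known, Spearman's rho of log2 fold change and GC was -0.33, a description across genes that share the same 6 libraries. Its part in single values was not tested beyond the correction given above, under which the members' median was -0.37.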

How the data were processed

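The authors deposited whole-number counts per gene symbol, 1 table for each library and not normalized. Per the labels' protocols, polyadenylated RNA from TRIzol extracts went into VAHTS libraries, read from both ends for 150 bp. Per the submitters' processing notes TopHat, limma and edgeR were used with build hg38. Not given in the sources used here are the counting program, annotation and strand setting. Reads of overlapping genes could therefore be shared.

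Groups came from the sample titles. The counts went through edgeR 4.0.16 (R 4.3.3): filterByExpr (minimum count 10, minimum total 15), TMM scaling, a robust quasi-likelihood fit with group as its only term over all 14409 tested genes, and Benjamini-Hochberg adjustment with a threshold of 0.05. CPM are TMM-scaled, and each standard error is the absolute log2 fold change over the root of its F statistic. Coordinates, exon lengths and GC content are from GENCODE 29, which 26216 symbols matched. The fit was tested on simulated data. The members, their roles and the other lists were chosen with earlier results of these data known. All 33 members are named, and of other lists up to 4 called genes with the largest change; KDM3B, STC1, EGLN3, WSB2, marker genes, pair partners and genes that overlap members were named after their values were seen. Chi-square per degree of freedom between replicates was 3.11 to 9.30, so each library counted as 1 replicate. Alternatives were RLE and library size scaling, other filters, DESeq2 1.42.0, limma-voom 3.58.1, no robust option, a replicate block, each library left out, and an offset for GC content (spline with 5 degrees of freedom).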

Additional observations from a re-analysis of the deposited data

How the results depend on the processing

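The members' count of 22 lower and 0 higher was 22 with RLE scaling, with both other filters, with DESeq2, with limma-voom and without robust estimation, and 23 with library size scaling and with the GC correction, with 0 higher in each; of the 22 genes, 19 were lower in all 16 alternatives, the exceptions being WSB1, ERO1A and FUT11 in fits without 1 library. Over the fits without 1 library the count ran from 19 to 23, the median from -0.37 to -0.34, the genes changed from 950 to 2531, those lower from 589 to 1272, those higher from 361 to 1259, the glycolytic genes lower from 14 to 20, the HIF system genes changed from 1 to 2 and the relatives changed from 6 to 18. Values that did not pass changed sign in some of these fits: KDM4C ran from -0.10 to 0.0098, JMJD6 from -0.0034 to 0.071 and BNIP3 from -0.083 to 0.50; the cause was not tested. With scaling by library size alone 1229 genes were lower and 649 higher, in place of 1034 and 917. With the GC correction 1358 were lower and 1372 higher, and with that correction and the replicate block 1362 were lower and 1389 higher. The labels do not say whether the numbers in the titles pair the samples. Correlations of same-numbered deviations were 0.07, -0.00 and 0.03, and those of differently numbered ones ran from -0.09 to 0.06. With the replicate block 22 members were lower and 2193 genes changed, in place of 1951. The core stood in 88.9% of members' promoters also in the 250 bases before the start, beside 64.1% of tested genes and 47.4% of all. ACGTG alone, in the full 300 bases, stood in 70.4%, beside 32.1% and 24.9%. BNIP3 had 14 to 30 counts a library and the 3 members that were not tested at most 4, which limits what can be said of them. Whether the replicates are separate cultures is not stated, and 1 knockout line or pool cannot be told apart from the effect of GSK3B.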
